A study of Mus musculus with 12 samples.

Results

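The endoplasmic reticulum (ER) translocation and vesicle coat genes are the genes for the machinery that brings new secretory proteins into the ER and carries them to the Golgi. The set was proposed with earlier results of these data known, but the rule that picks its members reads only gene symbols and no measured value: Sec11, Sec13, Sec16, Sec22, Sec23, Sec24, Sec31 and Sec61 to Sec63 genes, Cop coat genes without the Cops genes, Ssr1 to Ssr4, Spcs1 to Spcs3, numbered Srp genes and numbered Tmed genes. The choice gave 82 probe sets, which stand for 47 of the 12393 genes measured. A probe set is the group of array probes that reads 1 transcript region. A gene with several probe sets was represented by its brightest, and genes whose probe sets disagree are named. Of the 47 genes, 27 had 1 probe set and 20 had several.

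The study asked how PC-TP, the phosphatidylcholine transfer protein made from Pctp and known as StarD2, bears on the metabolic response to the nuclear receptor PPARα. Livers came from 6 Pctp-/- mice and from 6 wild-type littermates, all male, on an FVB background and 9 weeks old. Both groups had eaten a standard rodent diet until 8 weeks of age and then a diet with 0.2% fenofibrate, a drug that activates PPARα, for 7 days. No mouse without fenofibrate was analysed here, so all values compare genotypes under the drug. RNA of each liver was put on an Affymetrix array of its own. The labels name no tissue-specific deletion, and a whole-liver extract mixes all its cell types.

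Values are the authors' intensities on a linear scale, and differences are log2(intensity + 16), knockout minus wild type, so a positive difference means higher in the knockout. Each probe set was tested with limma and the p-values were adjusted by the Benjamini-Hochberg method over all 22626 probe sets, with a threshold of 0.05. The brighter Pctp probe set averaged 82.5 ± 12.3 in knockout livers and 2855 ± 77.2 in wild-type livers (SD, n = 6 each), and no array went against its label. Array medians ran from 84 to 91.2. Of the 10 hepatocyte markers measured, Hnf4a was higher and Cps1 lower, and their summed intensity was 77827 to 81161 in knockout livers and 77741 to 80764 in wild-type livers, so both groups carried the labelled tissue's markers.

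A protein bound for secretion is recognised at its signal peptide by the signal recognition particle (SRP), which brings the ribosome to the Sec61 channel in the ER membrane. The translocon-associated protein (TRAP) complex sits beside the channel, and signal peptidase removes the signal peptide. Cargo leaves the ER in vesicles coated by COPII, with p24 (Tmed) proteins as cargo receptors and Sec22b as a fusion SNARE, while COPI coats carry proteins and membrane back. Hepatocytes export most plasma proteins and the lipoproteins by this route. Transcription of many of these genes is raised by XBP1 and ATF6, factors of the unfolded protein response, which bind the DNA element TGACGTGG.

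That element was searched because it belongs to the known regulators of the route, in RefSeq promoters of the build GRCm38.p6 that run from 250 bases before the start site to 50 after it. A promoter entry was found for 39 of the 47 genes. TGACGTGG, on either strand, was in 5 of the 39 (12.8%), against 0.714% of 27025 RefSeq genes and 1.04% of the 9882 array genes with an entry. The 5 windows are shown on the gene's own strand, 5′ to 3′, with the element in capitals (CCACGTCA where it lies on the opposite strand).
Sec16b, chr1:157506742-157506769, plus strand: tctgtgtggcTGACGTGGcacggcagtt
Sec23a, chr12:59011994-59012021, minus strand: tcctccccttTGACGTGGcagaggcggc
Sec24d, chr3:123267460-123267487, plus strand: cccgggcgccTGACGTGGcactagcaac
Copb1, chr7:114254691-114254718, minus strand: ccgcccccttCCACGTCAgccaaggact
Copb2, chr9:98563714-98563741, plus strand: cccggaagttCCACGTCAgtgggttggc
Of these, 3 are COPII genes and 2 are COPI genes. The element began 44 bases before the start site in Sec16b, 26 before it in Sec24d, 28 before it in Copb1 and 7 before it in Copb2, and at base 7 after the start in Sec23a.

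The shorter core ACGTGG, which every TGACGTGG contains, was in 20 of the 39 promoters (51.3%), against 12.4% of the array genes and 9.4% of all RefSeq genes. It was also in 2 other genes whose level differed between genotypes, Copz2 and Tmed3, shown here with the core in capitals. Each has a further core after its start site.
Copz2, chr11:96849746-96849771, plus strand: ttctgcaacgACGTGGgggtcgggca
Tmed3, chr9:89705229-89705254, minus strand: ttctccggagACGTGGcagacactaa
The ER stress response element, CCAAT and CCACG with 9 bases of any kind between them, was in 0 of the 39 promoters and in 0.182% of array genes. A match is a run of letters and was not tested as a binding site. Of the 20 genes with the core, 0 were higher and 3 lower (Copz2, Sec16b and Tmed3) in knockout livers, with a median difference of 0.005. Of the 19 genes without it, 1 was higher (Sec23ip) and 0 lower, with a median of 0.03. Sec61a1, also lower in knockout livers, had no promoter entry and is in neither count. The shares called were 15% of the 20 and 5.3% of the 19, beside 11.7% of all genes. In limma at an unadjusted p under 0.05 the counts were 4 of 20 and 4 of 19.

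Few genes of this machinery differed between genotypes, and the differences were small. In knockout livers 1 gene was higher, Sec23ip, and 4 were lower, Sec61a1, Sec16b, Tmed3 and Copz2. These 5 are 10.6% of the 47, beside 11.7% of all genes called. By direction, 2.13% of the 47 were higher, beside 6.44% of all genes, and 8.51% were lower, beside 5.21%. Among genes with a mean intensity of at least 100, 11.4% of members and 17.7% of all genes were called. By probe set, 9 of 82 passed (11%), 3 higher and 6 lower, beside 12% of all probe sets. At an unadjusted p under 0.05 there were 11 of 47 genes, beside 26.2% of all genes. The groups did not overlap in 2 of the 47 genes, beside 6.78% of all genes. Over all genes, the share called lower, which rests on 4 genes, is above its background, and the other shares are near it or below it. Among genes of at least 100, 4 of 44 members and 531 of 6687 genes were lower, shares that lie closer together. In that set 1 of 44 members and 654 of 6687 genes were higher.

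**Figure D1:**
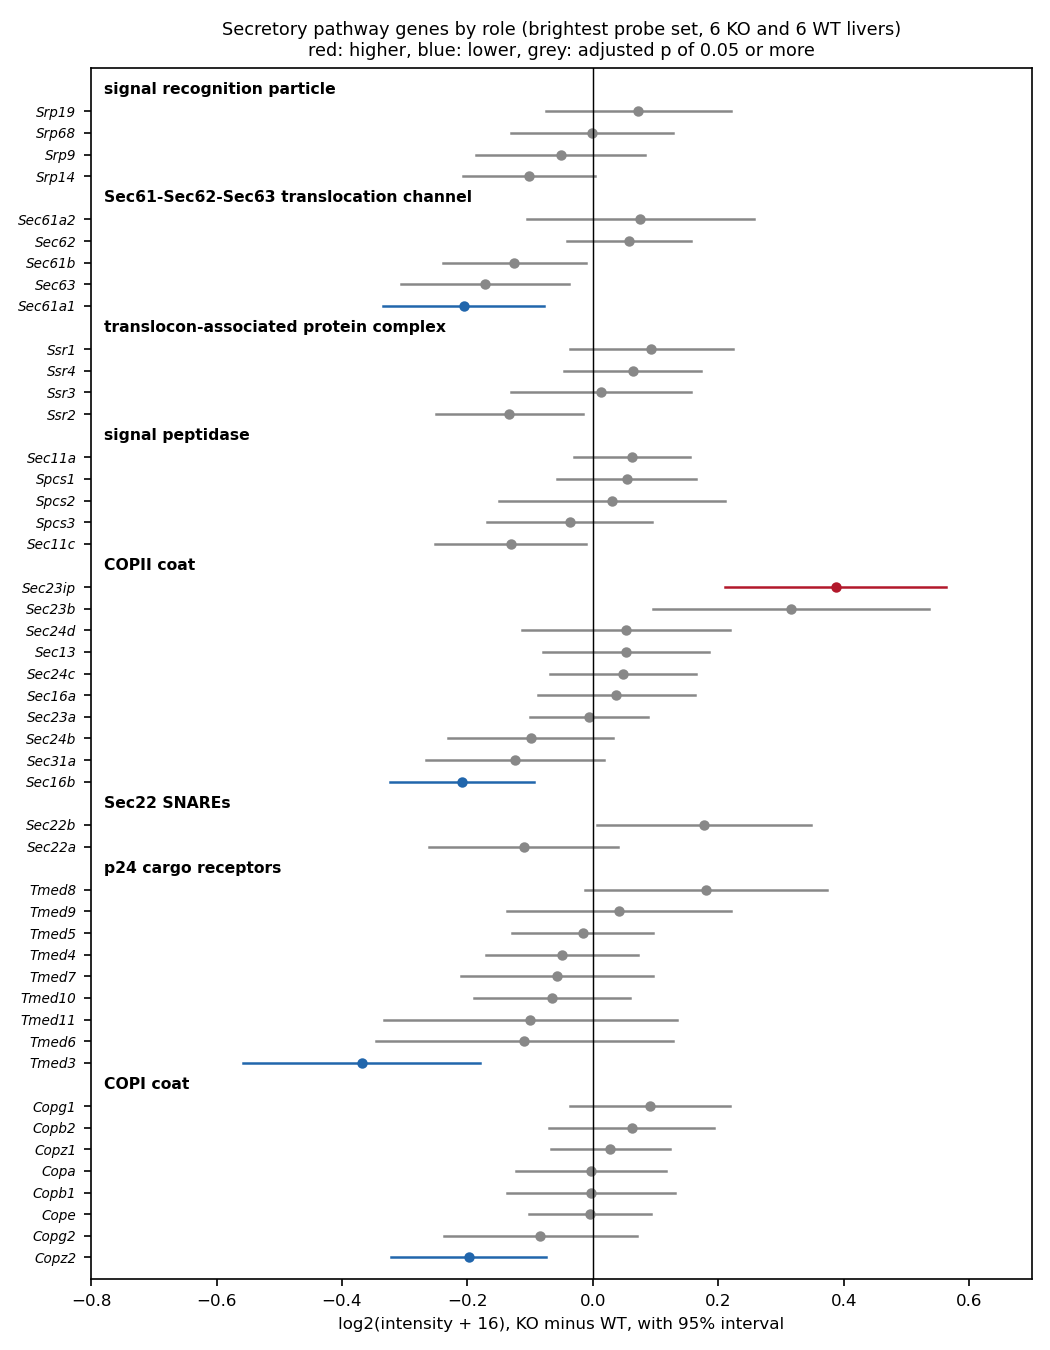
Difference between 6 knockout and 6 wild-type livers for each of the 47 genes (x axis, log2 of intensity plus 16, knockout minus wild type, with 95% interval), grouped by role from the signal recognition particle down to COPI. Most intervals cross 0; Sec23ip lies to the right in red, and Sec61a1, Sec16b, Tmed3 and Copz2 lie to the left in blue.

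The 47 differences ran from −0.37 (Tmed3) to 0.39 (Sec23ip), with 21 above 0 and 26 below. Their median was −0.003, beside 0.015 over all genes, and the median size without sign was 0.065, beside 0.101. For 35 of the 47 genes (74.5%) the 95% interval lay wholly inside a 1.2-fold change either way, beside 41.5% of all genes. Among genes with a mean intensity of at least 100, these shares were 35 of 44 (79.5%) and 53.5%. These counts rest on the brightest probe set. The intervals of all probe sets of a gene lay inside 1.2-fold for 24 of the 47 genes (51.1%). Among the genes of at least 100, the median coefficient of variation was 6.60% in knockout livers and 6.98% in wild-type livers for members, beside 7.33% and 7.49% for all such genes.

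Livers of 1 genotype also differed among themselves. Relative to each gene's mean over the 12 livers, the median deviation over the 47 genes ran from −0.073 to 0.052 in knockout livers and from −0.083 to 0.106 in wild-type livers. The highest liver was wild-type replicate 2, with 39 of 47 genes above their mean. The lowest count was in knockout replicate 5, with 13. The ranges of the 2 groups overlap.

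**Figure D2:**
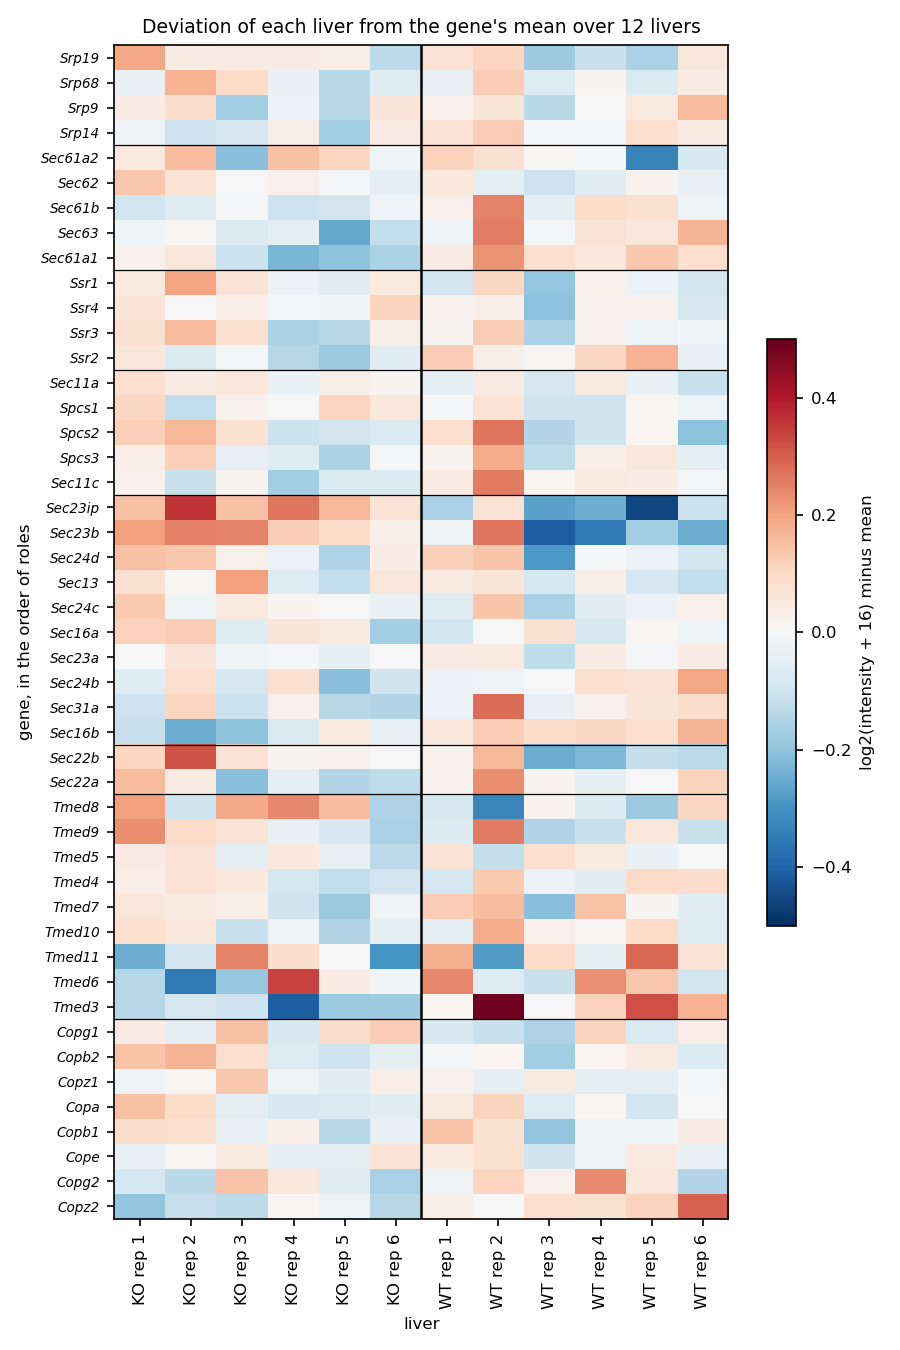
Deviation of each liver (columns, 6 knockout then 6 wild-type) from the gene's mean over the 12 livers, in log2 units (red above, blue below), for the 47 genes in the order of their roles. Wild-type replicate 2 is mostly red, with 39 of 47 genes above their mean, and knockout replicate 5 mostly blue, with 13.

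Of the signal recognition particle, 4 genes were measured. On their brightest probe sets 0 passed the test in limma, also at an unadjusted p under 0.05. Differences ran from −0.10 (Srp14) to 0.07 (Srp19), and all 4 intervals lay inside 1.2-fold. Srp14, which with Srp9 forms the Alu-domain pair that pauses translation, averaged 1056 ± 60.4 in knockout livers and 1134 ± 41.5 in wild-type livers. Its 4 probe sets all lay below 0, from −0.16 to −0.07, and none passed. The dimmer 1454615_x_at and 1418568_x_at had an unadjusted p of 0.0150 and 0.0169 in limma (adjusted p = 0.0900 and 0.0965). The interval of 1418568_x_at ran from −0.28 to −0.03, not inside 1.2-fold. Srp68, a protein of the particle's S domain, averaged 404.5 ± 33.9 and 404.1 ± 21.8, knockout first, a difference of 0.00 with an interval from −0.13 to 0.13.

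The channel itself had 5 genes, of which 1 was lower in knockout livers, Sec61a1, which encodes the pore-forming α subunit. Its brightest probe set had a lowest value of 907.0, a median of 969.5 and a highest of 1108 in knockout livers, against 1096, 1126 and 1246 in wild-type livers. The groups overlapped, with 5 of 6 knockout livers below all wild-type livers. The difference was −0.21 (SE 0.059, 95% interval −0.33 to −0.08), 1.15-fold lower, with an adjusted p of 0.0403 in limma. This call depends on the probe set and on single livers. Of the 6 Sec61a1 probe sets, another was also lower (−0.22, adjusted p = 0.0317, and 0.0516 to 0.0675 without any 1 of 8 livers), a further one lay at −0.11 and the other 3, all dimmer, lay at 0.24, 0.14 and 0.13 without passing. Their mean gave −0.004 (adjusted p = 0.983). Without any 1 of knockout replicates 3, 4, 5 or 6 or wild-type replicates 2, 3, 4, 5 or 6 the adjusted p was 0.0562 to 0.0835.

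The other channel genes did not pass on their brightest probe set. Sec61b, the small β subunit, averaged 1695 ± 48.1 in knockout livers and 1854 ± 139.5 in wild-type livers, a difference of −0.13 (adjusted p = 0.147). Sec63, the J-domain partner that recruits the chaperone BiP to the channel, averaged 616.4 ± 40.1 and 697.0 ± 54.3, knockout first, a difference of −0.17 (adjusted p = 0.0915). Its other 3 probe sets lay at 0.03, 0.18 and −0.14, so no direction is given for the gene. Sec61a2, the second α subunit gene, lay at 0.08.

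Sec62, which helps proteins enter that Sec61 alone admits poorly, showed the widest split between probe sets. The probe set 1455698_at had a lowest value of 73.1, a median of 95.3 and a highest of 108.4 in knockout livers, against 133.6, 146.7 and 152.0 in wild-type livers. The groups did not overlap. The difference was −0.56 (SE 0.076, 95% interval −0.72 to −0.39), 1.47-fold lower, with an adjusted p of 0.00113 in limma. The brightest Sec62 probe set averaged 1297 ± 59.8 in knockout livers and 1245 ± 48.6 in wild-type livers, a difference of 0.06 with an interval from −0.04 to 0.16. The remaining 2 lay at −0.06 and 0.07, and neither passed. Of the 82 probe sets, the authors' deposited table of 727 selected probe sets holds 1, this same 1455698_at, with a signed fold of −1.54, a p of 0.000148 and present calls on 100% of arrays in both groups.

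Other genes split too. Of the 20 genes with several probe sets, 13 had probe sets on both sides of 0 (Sec62, Sec61a1, Sec24b, Tmed4, Sec63, Copb2, Ssr1, Tmed7, Copg1, Tmed9, Ssr4, Srp9 and Spcs1), 4 had some called and some not, and 0 had all called in limma. The median range within a gene was 0.14. A dim probe set of Sec24b, a COPII cargo adaptor, was higher in knockout livers, at 45.9 ± 5.61 against 32.5 ± 4.95 in wild-type livers (0.35, adjusted p = 0.0119, no overlap), while its brighter one lay at −0.10 (adjusted p = 0.336). A dim probe set of the p24 gene Tmed4 was higher too, at 33.4 ± 7.34 against 22.2 ± 3.77 in wild-type livers (0.36, adjusted p = 0.0344). The brighter Tmed4 probe set lay at −0.05. The dim Tmed4 call was lost without any 1 of 8 livers (knockout replicates 1, 2, 3 and 5 and wild-type replicates 1, 2, 5 and 6), at an adjusted p of 0.0568 to 0.0708.

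**Figure D3:**
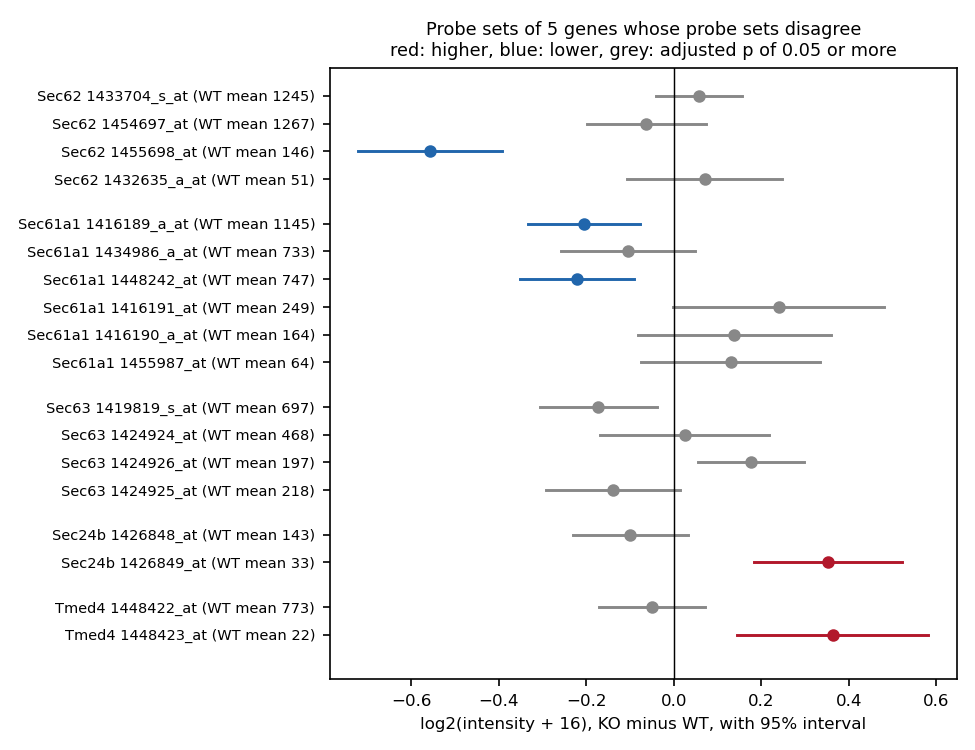
Knockout minus wild-type difference of each probe set of Sec62, Sec61a1, Sec63, Sec24b and Tmed4 (x axis, log2 of intensity plus 16, with 95% interval, 6 livers a group), brightest probe set of a gene on top. In each gene the probe sets lie on both sides of 0; the Sec62 probe set 1455698_at lies at −0.56 while the gene's brightest lies at 0.06.

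Of the TRAP complex 4 genes were measured and 0 passed in limma, with 1 at an unadjusted p under 0.05, Ssr2. Differences ran from −0.13 (Ssr2, the β subunit) to 0.09 (Ssr1, the α subunit), and all 4 intervals lay inside 1.2-fold. Ssr3, the γ subunit, averaged 1718 ± 152.5 in knockout livers and 1699 ± 107.3 in wild-type livers. Of the 5 signal peptidase genes 0 passed in limma, with 1 at an unadjusted p under 0.05 (Sec11c), and all 5 intervals lay inside 1.2-fold. Spcs1, a noncatalytic subunit, averaged 1906 ± 110.5 in knockout livers and 1835 ± 83.4 in wild-type livers. The catalytic subunits lay on opposite sides, Sec11a at 0.06 and Sec11c at −0.13 (adjusted p = 0.153).

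COPII had 10 genes, of which 1 was higher and 1 lower in knockout livers. Sec23ip encodes the protein p125, which binds the inner coat protein Sec23 and helps organise ER exit sites. It had a lowest value of 238.7, a median of 254.4 and a highest of 296.0 in knockout livers, against 161.2, 195.0 and 239.1 in wild-type livers. The groups overlapped only at wild-type replicate 2, which lay just above the lowest knockout liver. The difference was 0.39 (SE 0.081, 95% interval 0.21 to 0.56), 1.31-fold higher, with an adjusted p of 0.00941 in limma. It was the highest difference of the 47 genes, and its call held without each single liver in turn, at an adjusted p of 0.00414 to 0.0230.

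Sec16b, a scaffold of ER exit sites whose promoter window is printed above, was lower. It had a lowest value of 701.4, a median of 781.5 and a highest of 862.8 in knockout livers, against 868.3, 893.4 and 940.9 in wild-type livers. The groups did not overlap. The difference was −0.21 (SE 0.053, 95% interval −0.32 to −0.09), 1.16-fold lower, with an adjusted p of 0.0235 in limma, and without wild-type replicate 6 it was 0.0528. The related scaffold Sec16a lay at 0.04 (741.1 ± 57.8 in knockout livers and 720.4 ± 32.2 in wild-type livers).

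Sec23b, one of 2 genes for the inner coat protein Sec23, did not pass, and its call changed with 1 liver and with several settings. It had a lowest value of 407.2, a median of 448.7 and a highest of 477.7 in knockout livers, against 296.0, 342.3 and 483.7 in wild-type livers. All 6 knockout livers lay above every wild-type liver but replicate 2, which was the highest of the 12. The difference was 0.32 (95% interval 0.10 to 0.54, adjusted p = 0.0623), and without wild-type replicate 2 it was 0.40 with an adjusted p of 0.00662. With all 12 livers it passed under an added constant of 64, a filter at 100, quantile normalization, a trended variance or array weights. Its paralog Sec23a averaged 1537 ± 39.9 in knockout livers and 1544 ± 71.2 in wild-type livers, with an interval from −0.10 to 0.09. The cage proteins Sec13 and Sec31a lay at 0.05 and −0.12 and the adaptors Sec24c and Sec24d at 0.05 each, all without passing.

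The Sec22 genes numbered 2, and 0 passed in limma. Sec22b, the ER to Golgi SNARE, averaged 547.4 ± 49.5 in knockout livers and 483.3 ± 56.2 in wild-type livers, a difference of 0.18 (unadjusted p = 0.0430, adjusted p = 0.173). The dimmer Sec22b probe set lay at 0.06 (unadjusted p = 0.430 in limma, adjusted p = 0.662). Sec22a lay at −0.11.

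Of the 9 numbered Tmed genes 1 passed, Tmed3, which was lower in knockout livers and had the lowest difference of the 47 genes. It had a lowest value of 204.8, a median of 247.1 and a highest of 261.4 in knockout livers, against 278.8, 308.7 and 396.3 in wild-type livers. The groups did not overlap. The difference was −0.37 (SE 0.087, 95% interval −0.56 to −0.18), 1.29-fold lower, with an adjusted p of 0.0166 in limma. The call held without each single liver in turn, at an adjusted p of 0.0135 to 0.0394. The promoter window with the core element in Tmed3 is printed above.

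The other Tmed genes ran from −0.11 to 0.18. Tmed5 averaged 2986 ± 160.5 in knockout livers and 3020 ± 157.2 in wild-type livers on its brighter probe set. On its dimmer one it averaged 1817 ± 55.7 and 2043 ± 150.4, knockout first, without overlap (−0.16, adjusted p = 0.0577). The dimmer one passed under an added constant of 64, a filter at 100, quantile normalization or median centring. It also passed under a trended variance, array weights or an unmoderated test. Tmed10, found in most p24 complexes, lay at −0.06 (95% interval −0.19 to 0.06). Tmed7 lay at −0.06 on its brightest probe set and at 0.15, 0.14 and 0.12 on its dimmer ones, without passing. Tmed6, Tmed8 and Tmed11 had mean intensities under 100, and for these 3 genes a small change would be hard to see.

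Of 8 COPI coat genes 1 passed, Copz2, which encodes the second form of the ζ subunit and was lower in knockout livers. It had a lowest value of 330.1, a median of 348.4 and a highest of 383.5 in knockout livers, against 380.7, 403.1 and 469.9 in wild-type livers. The groups overlapped by a single pair, with 5 of 6 knockout livers below all wild-type livers. The difference was −0.20 (SE 0.057, 95% interval −0.32 to −0.07), 1.15-fold lower, with an adjusted p of 0.0403 in limma. Without any 1 of knockout replicates 1, 2, 3 or 6 or wild-type replicates 3, 4, 5 or 6 the adjusted p was 0.0625 to 0.0851.

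Other COPI subunits lay close to 0 on their brightest probe sets. Copa, the α subunit, averaged 1514 ± 104.1 in knockout livers and 1516 ± 79.0 in wild-type livers. Copz1, the first form of ζ, averaged 1217 ± 58.7 and 1193 ± 33.5, knockout first, a difference of 0.03 with an interval from −0.07 to 0.12. Copb1 and Cope lay within 0.01 of 0, Copb2 at 0.06, Copg1 at 0.09 and Copg2 at −0.08. On these probe sets the intervals of 7 of the 8 genes lay inside 1.2-fold. The dimmer Copb2 probe set lay at −0.18, with an interval from −0.35 to −0.02 that was not inside 1.2-fold (adjusted p = 0.147 in limma).

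**Figure D4:**
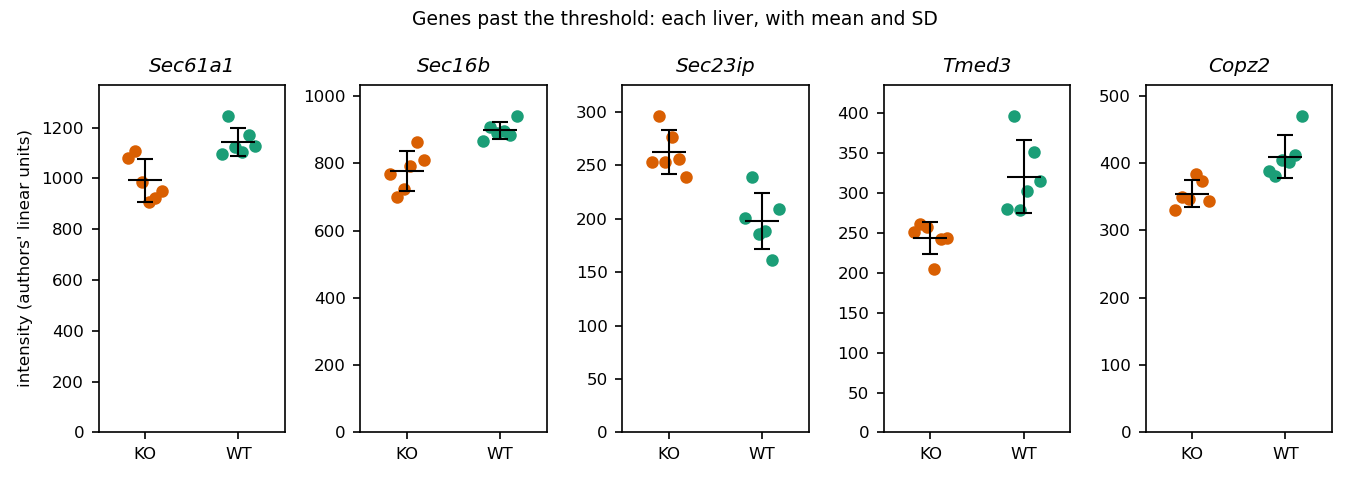
Intensity in each liver (y axis, the authors' linear units, starting at 0) for the 5 genes past the threshold, with knockout livers left of wild-type livers (6 each) and bars for the mean and SD. Sec23ip is the gene that is higher in knockout livers; Sec16b and Tmed3 are lower without overlap, and Sec61a1 and Copz2 are lower with overlap.

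Signs of RNA quality differed between the groups. The array's 5′ to 3′ log2 ratio for beta-actin was −1.18 ± 0.084 in knockout livers and −1.57 ± 0.13 in wild-type livers (SD, n = 6 each), without overlap (difference 0.39, two-sided exact permutation p = 0.00217, adjusted p = 0.00289 over 4 transcripts). Gapdh and pyruvate carboxylase also had higher ratios in knockout livers, by 0.11 and 0.32 (exact permutation p = 0.00217 each), while the ratio for the transferrin receptor differed by −0.02 at an exact permutation p of 0.866. When the fit also took in each array's beta-actin ratio, 0 of the 82 probe sets passed in limma, against 2 of all 22626. At an unadjusted p under 0.05 there were 5 of the 82, against 1501 of all 22626. Since the groups do not overlap in this ratio, ratio and genotype cannot be told apart in that fit, and the part of RNA quality in the calls above was not tested further.

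Few markers of other liver cells passed the threshold. Of 66 genes in 8 lists of cells other than hepatocytes, 4 were higher and 0 lower in limma, beside 6.44% and 5.21% of all genes. The stellate cell and fibroblast list had 3 of 11 higher (Ecm1, Dcn and Reln), with summed intensities of 3249 to 3942 in knockout livers and 2773 to 3463 in wild-type livers. The endothelial list had 1 of 10 higher (Fcgr2b), with sums of 3146 to 3508 in knockout livers and 2869 to 3350 in wild-type livers. At an unadjusted p under 0.05 in limma there were 5 of 11 stellate and 5 of 10 endothelial markers, beside 26.2% of all genes. Of the Kupffer cell list, 0 of 11 passed in limma and 1 had an unadjusted p under 0.05, with sums of 4681 to 6404 in knockout livers and 3552 to 8206 in wild-type livers. The median difference of that list was 0.25, with 9 of 11 genes above 0. In the cholangiocyte, lymphocyte, plasma cell, neutrophil and adipocyte lists 0 genes passed in limma, and 0, 2, 0, 2 and 1 genes, in that order, had an unadjusted p under 0.05. Most markers in these 5 lists were dim: under an intensity of 100 were all 5 cholangiocyte, 8 of 9 lymphocyte, 6 of 7 plasma cell, 6 of 7 neutrophil and 4 of 6 adipocyte markers. The stellate cell markers Des and Lrat were dim too. In bulk liver, fewer cells of a type and less RNA per cell cannot be told apart, and the part of cell makeup in the results was not tested.

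Partner genes of the same route that the symbol rule does not take in were read from the same fit. Of 140 measured in 5 lists, 13 were higher and 13 lower, together 18.6%, beside 11.7% of all genes. Among genes of at least 100 the shares were 25 of 130 (19.2%) and 17.7%. By direction, 6.44% of all genes were higher and 5.21% lower. The lists were chosen with earlier results of these data known, so the counts are descriptions.

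Among the partners at the ER membrane and in its lumen (SRP receptor, chaperones that pull the chain in, and the ER membrane complex), 1 of 29 was higher and 6 lower, with a median of −0.02. Together these are 24.1%, beside 11.7% of all genes. The lower count was 3 without any 1 of knockout replicates 2, 5 or 6 or wild-type replicates 1, 4 or 6. Hyou1, an ER chaperone and exchange factor for BiP, averaged 438.1 ± 32.8 in knockout livers and 613.4 ± 53.2 in wild-type livers, 1.39-fold lower (−0.47, adjusted p = 0.00153, no overlap). Its other probe sets did not pass, at −0.02 and 0.18. The BiP cochaperones split: Dnajb9 was 1.37-fold higher (0.46, adjusted p = 0.00440), and Dnajc3 and Dnajb11 were lower (−0.28 and −0.30, adjusted p = 0.00637 and 0.00987). BiP itself, Hspa5, averaged 3696 ± 370 in knockout livers and 3787 ± 326 in wild-type livers and did not pass. Nor did the SRP receptor genes Srpr (0.08) and Srprb (0.01).

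In the list of oligosaccharyltransferase and ER folding genes, which attach N-glycans and fold the imported chain, 0 of 28 were higher and 4 lower, with 24 of 28 below 0, beside 45.8% of all genes, and a median of −0.13. The share called was 14.3%, beside 11.7% of all genes. The lower count was 7 to 9 under the filter at 100, quantile normalization, median centring or a trended variance, and without wild-type replicate 1 the higher count was 1. The 4 were the prolyl isomerase Ppib (−0.21, adjusted p = 0.0115), the oligosaccharyltransferase subunit Magt1 (−0.33, adjusted p = 0.0130), the ER stress-induced Creld2 (−0.32, adjusted p = 0.0178) and the catalytic subunit Stt3a (−0.21, adjusted p = 0.0362). The Stt3a call was lost without any 1 of 8 livers (knockout replicates 1, 2, 4 and 5 and wild-type replicates 2, 4, 5 and 6), at an adjusted p of 0.0518 to 0.0768.

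COPII partners and ER exit receptors had 5 of 35 higher and 2 lower, together 20%, beside 11.7% of all genes, with a median of 0.05. The 5 include Mia2 and Ctage5, counted apart because the platform annotation gives them separate symbols. Mia2 was dim, at 41.4 ± 4.68 in knockout livers and 28.0 ± 8.15 in wild-type livers. The lower count was 1 without any single liver but knockout replicate 2 or wild-type replicate 1. The Golgi SNARE Gosr2 was higher (0.28, adjusted p = 0.00386), as were Tfg, which organises COPII at exit sites (0.35, adjusted p = 0.00401), and the SNARE Ykt6 (0.24, adjusted p = 0.0175). Lman1, the lectin receptor that carries glycoproteins out of the ER, was lower on its brightest probe set (−0.21, adjusted p = 0.0160) and higher on another (0.31, adjusted p = 0.0199), so no direction is given. The GTPases that start the coat, Sar1a and Sar1b, lay at 0.08 and 0.06 and did not pass.

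COPI partners and retrieval genes had 4 of 27 higher and 1 lower, together 18.5%, beside 11.7% of all genes, with a median of 0.05. The lower count was 2 without knockout replicate 6, and the higher count was 1 after median centring. The Golgi stacking protein gene Gorasp1 was 1.41-fold lower (−0.50, adjusted p = 0.000896), at 99.9 ± 10.04 in knockout livers and 147.4 ± 9.77 in wild-type livers without overlap. The Golgi phosphoprotein gene Golph3 (0.34, adjusted p = 0.00471), the SNARE gene Use1 (0.17, adjusted p = 0.0217) and the tether gene Cog2 (0.22, adjusted p = 0.0242) were higher. The Cog2 call was lost without knockout replicate 1, wild-type replicate 3 or wild-type replicate 5, which left 2 higher, at an adjusted p of 0.0507 to 0.0524.

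Of 21 regulators of the route, 3 were higher and 0 lower, together 14.3%, beside 11.7% of all genes, with a median of 0.07. In limma 6 of the 21 had an unadjusted p under 0.05, beside 26.2% of all genes. Atf4, a transcription factor of the integrated stress response, averaged 761.1 ± 89.4 in knockout livers and 494.5 ± 45.4 in wild-type livers, 1.52-fold higher (0.60, adjusted p = 0.00107, no overlap). Xbp1, whose spliced form binds the element printed above, averaged 2206 ± 153.3 and 1841 ± 151.7, knockout first, 1.198-fold higher (0.26, adjusted p = 0.0213), and the array value does not separate spliced from unspliced RNA. Of the 5 members with TGACGTGG in the promoter, 0 were higher and 1 lower, Sec16b, with a median of −0.003. The degradation adaptor Sel1l was also higher (0.21, adjusted p = 0.0310), a call lost without any 1 of knockout replicates 1 or 2 or wild-type replicates 1, 3, 5 or 6, at an adjusted p of 0.0528 to 0.0657.

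**Figure D5:**
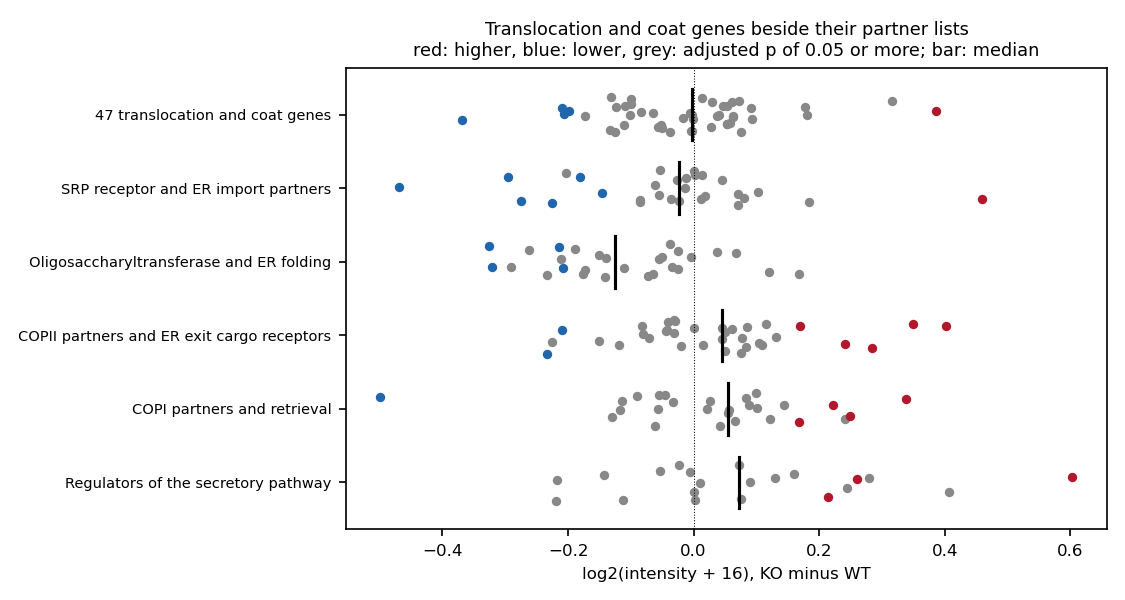
Knockout minus wild-type difference (x axis, log2 of intensity plus 16) of each of the 47 translocation and coat genes (top row) and of the 140 genes in 5 partner lists, each point 1 gene and each black bar a median. The medians of the oligosaccharyltransferase list (−0.13) and the regulators (0.07) lie on opposite sides of the coat genes' median (−0.003); Hyou1 and Gorasp1 are the far left points and Atf4 the far right.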

How the data were processed

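The authors deposited 1 linear intensity per probe set and array, already summarised and scaled; the sources used here name no program. The authors' second deposited file lists 727 probe sets with a signed fold (a score here), a p-value and a percent of present calls, per the file headers. Here intensities were taken as log2(intensity + 16) and fitted with limma 3.58.1 (lmFit, eBayes) in R 4.3.3, knockout minus wild type, 6 arrays each, without covariates, after leaving out 64 control probe sets. The fit was tested on simulated data. Folds include the added 16. Platform annotation, which can be old, gave 20380 probe sets 1 symbol, 691 several and 1555 none; 15 probe sets that pair a member's symbol with others were left out. A gene's brightest probe set has the highest mean log2 value. Control ratios were compared over all 924 assignments of arrays to groups. Each liver is a separate mouse, and the number of arrays limits the precision. Promoter sequences are RefSeq's (GRCm38.p6). Members, lists and tests were chosen with earlier results of these data known. The text names members past the threshold, the brightest of each role, those whose probe sets disagree, and up to 4 partner genes a list by smallest adjusted p; other genes were chosen after their values were seen. Alternatives changed the added constant, filter, scaling, variance model, threshold, probe-set choice, replicate block, covariate and livers used.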

Additional observations from a re-analysis of the deposited data

Results flagged for a closer look

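In 16 of 216 groups of 6 values (7.41%) 1 liver stood far from the other 5. Chance gives about 1 in 20 such groups, and no explanation was weighed. The groups were the livers of 1 genotype for each member probe set and for each partner gene past the threshold.

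Among genes past the threshold, Tmed3 was at 204.8 in knockout replicate 4 (others 242.4 to 261.4) and Copz2 at 469.9 in wild-type replicate 6 (others 380.7 to 412.5). The Sec62 probe set 1455698_at was at 133.6 in wild-type replicate 3 (others 146.0 to 152.0). Sec22b stood out in knockout replicate 2 on both of its probe sets, at 643.5 (others 513.4 to 552.6) and at 453.2 (others 357.2 to 391.5).

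Other members followed singly. In knockout livers, Srp9 was at 728.9 in replicate 1 on its dimmer probe set. In wild-type livers, Sec11c was at 506.8 in replicate 2 (others 417.4 to 435.3), Sec23a at 1407 in replicate 3, Copg1 at 152.3 and Tmed7 at 490.2 in replicate 1, each of these 2 on a dimmer probe set, and Tmed5 at 2336 in replicate 6 on its dimmer probe set.

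Among partner genes, all in knockout livers, replicate 4 stood out for Dnajb11 at 448.4, Ctage5 at 2440 and Cog2 at 298.4. Replicate 5 stood out for Lman1 at 1033 and Cog8 at 133.6.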

How the results depend on the processing

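The counts moved with single choices, and the cause was not tested. Main values were 2708 of all probe sets, 9 member probe sets, 1 member gene higher, 4 lower and 26 partner genes. With the beta-actin ratio as covariate they were 2, 0, 0, 0 and 0 in limma, while 1501 probe sets, 5 member probe sets, 2 member genes (both lower) and 19 partner genes had an unadjusted p under 0.05, and the members' median difference was −0.1035, against −0.0033. With a replicate block they were 1906, 4, 1, 1 and 15 (lower counts of 3 in the ER import, 2 in the folding and 0 in the COPII list); the replicate numbers do not pair the livers (correlations −0.078 to 0.078, and 0 of 12 livers correlated best with their own number). The higher count was 2, with Sec23b, under an added constant of 64, a filter at 100, quantile normalization, a trended variance, array weights or a threshold of 0.1. At thresholds of 0.01 and 0.1 the member probe sets numbered 2 and 15, and at 0.01 the lower genes 0. Without single livers the member probe sets ran from 4 to 8 (4 without wild-type replicate 6, 5 without knockout replicate 3 or wild-type replicate 5), the higher genes from 1 to 2 (2 without wild-type replicate 2), the lower genes from 1 to 4 (1 without wild-type replicate 6, 2 without knockout replicates 3 or 6 or wild-type replicates 3, 4 or 5), partner genes from 19 to 22 and all probe sets from 2006 to 2742. The median over all genes was 0.0146, and −0.0033 after quantile normalization, −0.0182 after centring and −0.0113 with the covariate; the share of calls that were higher was 57.0% as deposited, 49.2% and 44.0% under these scalings. The Sec24b probe set 1426849_at turned from 0.3531 to −0.0381 with the covariate. The beta-actin, Gapdh and pyruvate carboxylase ratios kept direction and call in all alternatives run; the transferrin receptor ratio difference, −0.016, changed sign (−0.0824 to 0.017 without single livers) and never passed. Tmed3, Sec23ip and the Sec62 probe set 1455698_at kept their call under all alternatives run but the covariate and, for Tmed3, the threshold of 0.01. Sec16b and Copz2 lost theirs under the replicate block too, and Sec61a1 under the block, an added constant of 1 and the mean of probe sets. The dim Tmed4 probe set lost its call under the covariate, the block, median centring, array weights and an unmoderated test. The brightest Sec63 probe set (−0.17) passed under the filter at 100, quantile normalization and centring. On the other side of 0, the Sec63 probe set 1424926_at (0.18) passed under the filter, an added constant of 64 and without some single livers. The Srp14 probe sets 1418568_x_at and 1454615_x_at also passed under the filter and centring. The first passed under quantile normalization too, and the second under an added constant of 64 and a trended variance. Intensities under 100 limit what can be seen for Tmed6, Tmed8 and Tmed11.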

Other observations

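Members' symbols also occur on 15 probe sets whose annotation names several genes, and these were left out of the counts above. Tmed2, a p24 cargo receptor, shares its probe sets with a predicted gene. The Tmed2 probe set 1420867_at averaged 618.7 ± 42.4 in knockout livers and 497.2 ± 87.1 in wild-type livers (SD, n = 6 each), a difference of 0.32 with an adjusted p of 0.0633 in limma. The brightest of them, 1436452_x_at, averaged 3253 ± 129.2 in knockout livers and 3235 ± 81.9 in wild-type livers. Sec61g, the γ subunit of the channel, shares 1423090_x_at with predicted genes and lay at −0.15 (adjusted p = 0.252). Of the 15, 1 passed the threshold: the probe set 1439444_x_at of Tmed10 and its pseudogene, at 998.5 ± 53.9 in knockout livers and 1128 ± 57.0 in wild-type livers (−0.17, adjusted p = 0.0430). The SRP GTPase genes Srp54a, Srp54b and Srp54c share probe sets with each other. The probe set 1416153_at, of all 3 genes, averaged 931.6 ± 29.1 in knockout livers and 919.3 ± 79.3 in wild-type livers and did not pass.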
